A study of Homo sapiens with 4 samples.

Results

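The levels of 55 genes for E2F transcription factors, their pocket protein partners and the DNA replication machinery were examined in MDA-MB-231 Fluc cells. The genes were chosen by symbol from those present among the 13957 genes of the authors' deposited table. That all 55 are in it therefore follows from the choice. RNA from 4 samples was sequenced, 2 from cells given 50 μM cordycepin, an adenosine analogue, and 2 from cells given the vehicle DMSO, each for 2 h. MDA-MB-231 is a triple-negative breast cancer cell line, and Fluc cells are a derivative with an inserted luciferase gene. Whether the derivative is a single clone is not given in the sources used here. The table gives 1 mean per gene over all 4 libraries, so each level below mixes treated and vehicle cells and has no SD. How deeply each library was sequenced is unknown, and cordycepin was not compared with DMSO here.

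Before a cell copies its DNA, the origin recognition complex binds replication origins, and CDC6 and CDT1 load the MCM2-7 helicase onto them, a step called licensing. In S phase CDC45, the GINS complex and MCM10 switch the helicase on, and primase, polymerases, a sliding clamp and its loader build the replisome that copies the strands. Many of the genes involved are known targets of E2F factors, which pocket proteins of the RB family hold back until cells pass into S phase. The members were therefore described in the order regulators, licensing factors, replisome and nucleotide supply.

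E2F factors bind DNA sites with the core letters TTTCGCGC, TTTGGCGC, TTTCCCGC or TTTGCCGC, so promoters were searched for these 4 forms on both strands. RefSeq promoters (GRCh38.p14, 250 bases before to 50 after the start of the gene) were found for 47 of the 55 genes, and E2F5, E2F8, GINS4, MCM4, MCM5, POLD3, RPA2 and RPA3 had none in the table used. Of the 47 promoters, 22 (46.8%, exact binomial 95% interval 32.1% to 61.9%) held at least 1 match. Among 9764 promoters of genes in the authors' deposited table the share was 5.56%, and among all 27305 promoters it was 3.33%. The RefSeq start lay over 500 bases from that of the GENCODE canonical transcript for RB1 (172699 bases inside the gene), PCNA (-6664, so before it), PRIM2 (-2825) and ORC4 (-814), so their windows need not be the promoter in use. Among the 43 other promoters 21 (48.8%) held a match, against 5.91% of 8585 promoters of the table chosen the same way. The intervals treat promoters as independent. A match describes the letters only, and binding was not measured. Many of the genes were known E2F targets when chosen, and how far the higher share follows from that choice was not tested.

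The promoters with 2 or more matches are shown because 6 of the members had them, and only 26 of the 9764 promoters (0.27%). The 26 include these 6, since the members are among the genes of the table. The 6 belonged to E2F1, RBL1, MCM2, MCM3, MCM6 and MCM7. Capitals mark the matches, and overlapping matches on the 2 strands run together. Stretches are given 5′ to 3′ on the strand of the gene, with E2F1 at chr20:33686383-33686433 (minus strand), RBL1 at chr20:37095991-37096038 (minus), MCM2 at chr3:127598398-127598439 (plus) and MCM6 at chr2:135876507-135876610 (minus).
E2F1: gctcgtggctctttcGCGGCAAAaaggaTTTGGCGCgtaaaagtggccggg
RBL1: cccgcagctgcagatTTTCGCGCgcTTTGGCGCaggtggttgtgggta
MCM2: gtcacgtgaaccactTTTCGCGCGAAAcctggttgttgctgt
MCM6: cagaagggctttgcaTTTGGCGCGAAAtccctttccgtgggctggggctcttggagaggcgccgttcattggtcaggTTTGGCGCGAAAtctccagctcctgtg

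All 4 MCM helicase genes with a promoter in the RefSeq table had at least 2 matches. In MCM2 and in both sites of MCM6 the match on the gene's strand overlapped a match on the other strand, which gives a run of 12 bases. For MCM3 and MCM7 the 2 matches lay far apart, and the one next to the start is shown, at chr6:52284724-52284761 (minus strand) and chr7:100101384-100101421 (minus). Beside them stand the matches of CDC6 at chr17:40287871-40287908 (plus) and of POLA2, which had the lowest level of the 55 genes, at chr11:65261894-65261931 (plus).
MCM3: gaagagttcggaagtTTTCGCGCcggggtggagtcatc
MCM7: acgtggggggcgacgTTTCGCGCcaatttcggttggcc
CDC6: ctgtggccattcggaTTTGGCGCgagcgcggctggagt
POLA2: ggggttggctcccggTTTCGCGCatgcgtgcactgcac

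By role, E2F matches were found in all 3 activator genes (E2F1, E2F2 and E2F3), in none of the 3 repressor genes with a promoter (E2F4, E2F6 and E2F7) and in 1 of the 3 pocket protein genes, RBL1. The window of RB1, far inside its gene, is counted here as one without a match. The windows of ORC4 and PRIM2, also over 500 bases from the canonical start, are counted likewise, and that of PCNA as one with a match. Only exact copies of the 4 forms were searched, so a promoter without a match need not lack an E2F site. Of the 6 origin recognition genes only ORC3 had one, whereas CDC6 and CDT1 both did and their inhibitor GMNN did not. In the replisome 10 of 22 promoters held a match, among them GINS1, GINS2 and GINS3, POLA1 and POLA2, POLE and POLE2, PCNA, RFC3 and LIG1. TYMS had a match and RRM1 and RRM2 did not. As classes, 4 of 9 E2F regulators (44.4%), 7 of 13 licensing factors (53.8%) and 10 of 22 replisome genes (45.5%) had a match, and the exact binomial 95% intervals of the 3 shares overlapped widely.

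**Figure D1:**
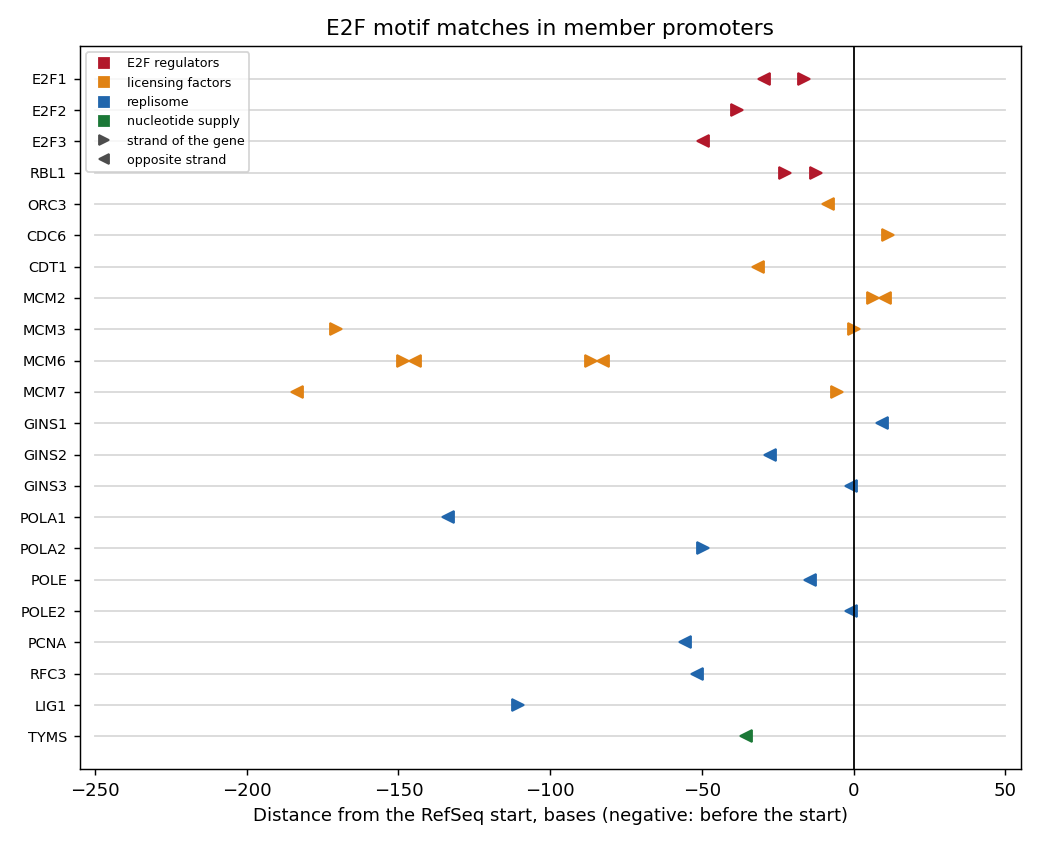
Position of each E2F motif match (4 forms, both strands) in the 22 member promoters that held one, as distance in bases from the RefSeq start. Arrowheads point along the strand of the match and colours give the class. Of the 30 matches, 24 lie between 100 bases before the start and the end of the window.

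Matches in the members lay close to the start of the gene, as the map of motif positions shows. Of their 30 matches, 24 (80.0%) began within the 100 bases before the start or in the 50 bases after it, compared with 287 of 571 (50.3%) in promoters of all genes in the authors' deposited table. Other promoter letters were searched in the same windows on both strands, and a GC box can share bases with an E2F match. The CCAAT box (CCAAT) was found in 25 of the 47 promoters (53.2%, exact binomial 95% interval 38.1% to 67.9%) and in 37.1% of those of the table. The GC box (GGGCGG) was in 68.1% of member promoters and 71.1% of those of the table. The CHR element (TTTGAA) was in 3 member promoters (6.38%, against 9.48%) and the TATA box (TATAAA) in 1, that of GINS3 (2.13%, against 5.25%). Base composition was alike, with a median GC content of 63.7% in members and 65.3% in the table.

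**Figure D2:**
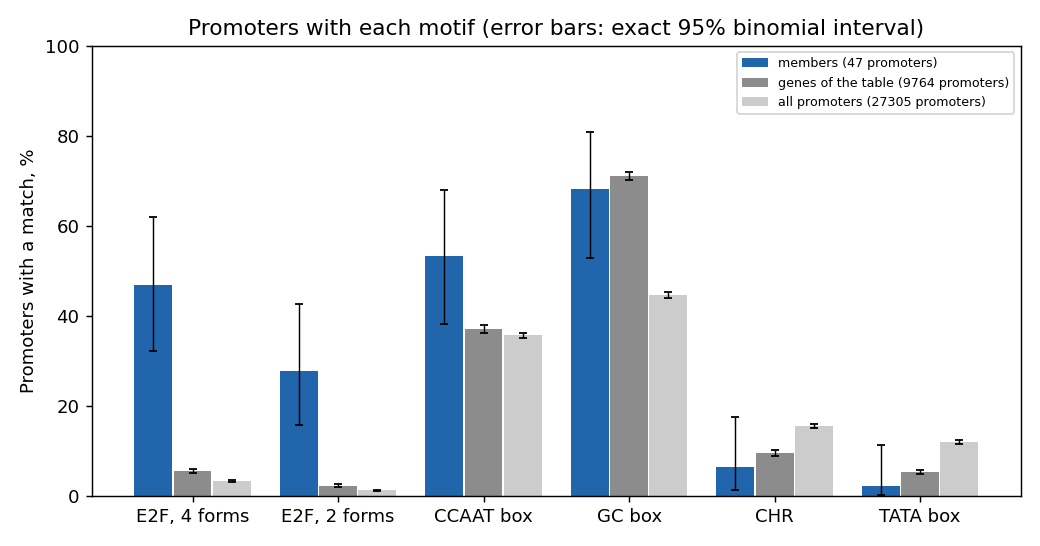
Share of promoters with at least 1 match to each motif, in percent, for the 47 member promoters, the 9764 promoters of genes in the authors' deposited table and all 27305 RefSeq promoters. Error bars are exact 95% binomial intervals. The E2F bar of the members, at 46.8%, stands above the 5.56% of the table, while the GC box bars are alike at 68.1% and 71.1%.

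Levels were then compared. A level is the authors' mean log2 CPM (read counts scaled to library size) less the log2 of the length in kb of the canonical GENCODE transcript, and so a log2 of CPM per kb. The median over the 55 genes was 4.38, against 3.04 over all genes of the authors' deposited table. Of the 55 genes, 48 lay above that median, 25 above the upper quartile of the table (4.56), 9 above its highest decile (5.96) and 3 below its lower quartile (1.53). The 55 genes are 0.394% of the table and held 0.58% of its summed CPM. Their levels ran from 0.87 (1.83 CPM per kb) for POLA2 to 7.65 (200.8 CPM per kb) for MCM7. As there is no spread over libraries, it cannot be said which neighbours in this order differ beyond error, and the order was instead checked under other gene lengths.

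The line itself was checked by markers. VIM, CD44, AXL and CAV1, all known to be high in MDA-MB-231, had mean log2 CPM between 10.25 and 11.01, at or above 99.6% of the genes of the table. The hormone receptor genes ESR1 and PGR were not among its genes, nor were the leukocyte and endothelial markers PTPRC, CD3E, PECAM1 and CDH5. The fibroblast markers COL1A1 and PDGFRB were in the table at mean log2 CPM of 3.36 and 3.28. Of the other luminal markers KRT19 was high at 8.34, and CDH1, EPCAM, GATA3 and FOXA1 were between 2.34 and 4.49.

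**Figure D3:**
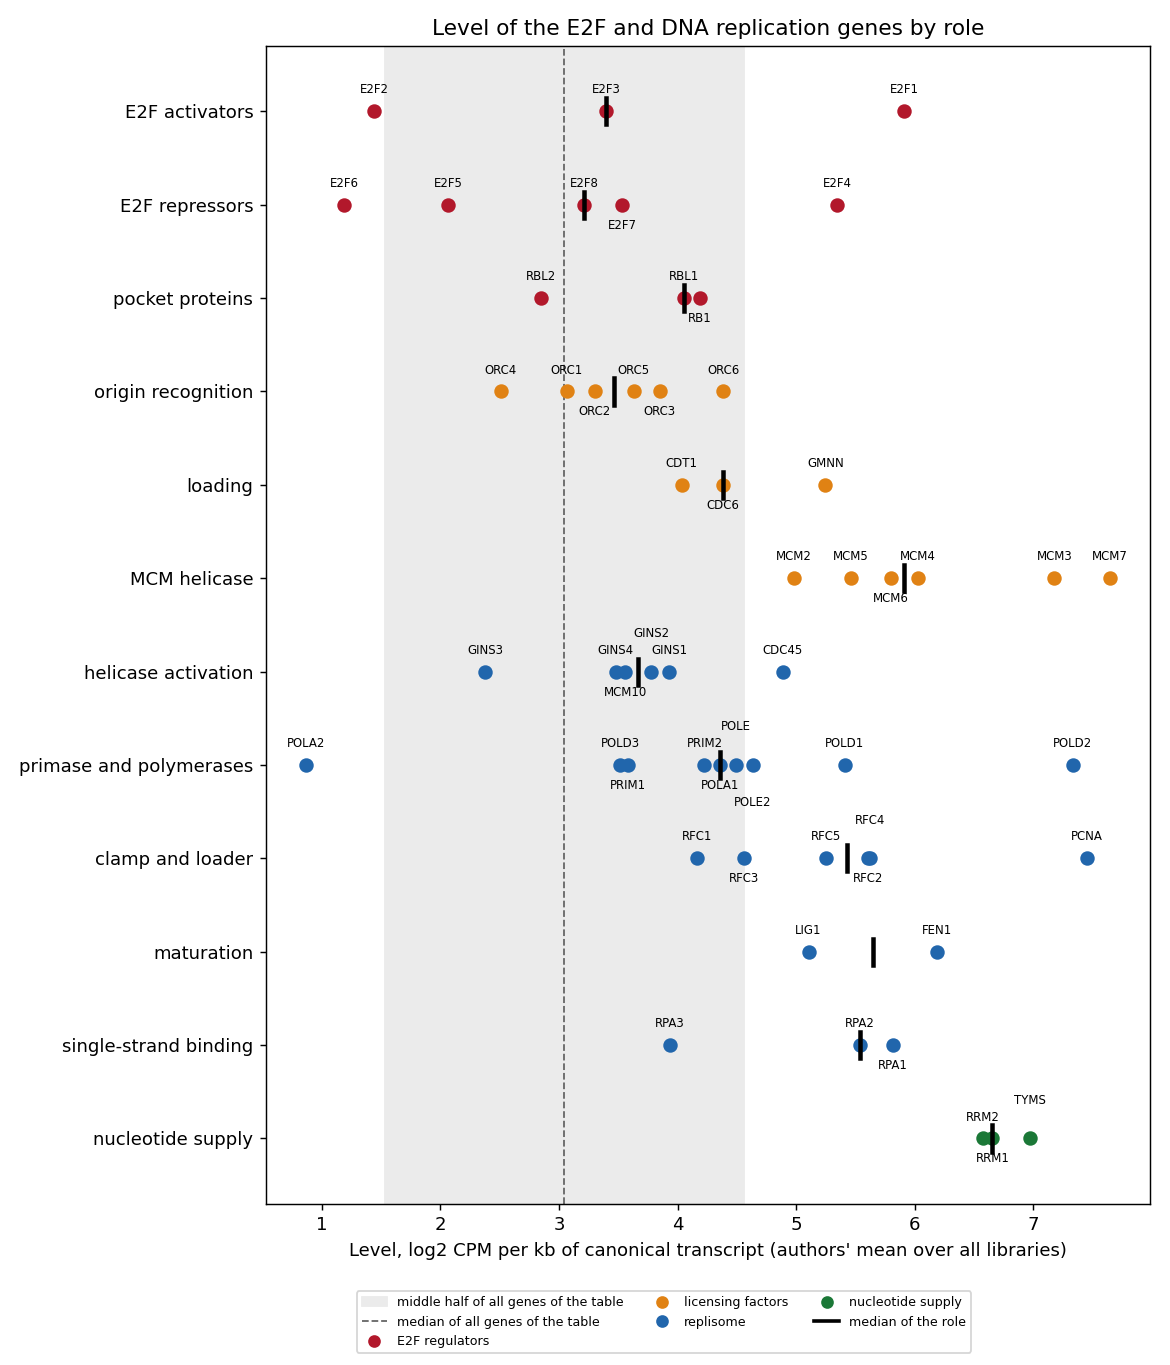
Level of each of the 55 genes by role, as log2 CPM per kb of canonical transcript, from the authors' mean over all libraries (1 point per gene, no error available). Black bars are role medians, the dashed line is the median of all genes (3.04) and the grey band runs from their lower to their upper quartile (1.53 to 4.56). The MCM helicase, maturation (FEN1 and LIG1) and nucleotide supply genes all lie to the right of the band.

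Among the regulators, E2F1 stood apart. E2F1 (ENSG00000101412, chromosome 20, 33675477 to 33686385 in the authors' deposited table), an activator of S phase genes, had a level of 5.91 (60.2 CPM per kb). The other activators were lower, with E2F3 at 3.40 and E2F2 at 1.44, so that E2F1 was 22.2 times E2F2 and 5.71 times E2F3. This order was kept under each of the 4 gene lengths tried. The repressors ranged as widely. E2F4, the main repressor of resting cells, had 5.35, E2F7 and E2F8, the atypical repressors that are themselves made in S phase, had 3.53 and 3.21, and E2F5 and E2F6 had 2.07 and 1.19. E2F5 was instead below E2F6 by union exonic length (0.455 and 0.854) and by coding length (2.986 and 3.125).

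The pocket protein genes RB1 and RBL1 had levels of 4.19 and 4.06, a ratio of 1.1, and their order turned with union exonic length (RB1 less RBL1, -0.23). RBL2 was lower at 2.85 and remained the lowest of this role under all 4 lengths. Over the 11 regulators the median level was 3.40 per canonical transcript, 0.36 above that of all genes. This distance depended on the length, from 0.22 by coding length to 1.15 without division. Per canonical transcript E2F2 and E2F6 were below the lower quartile of the table, and E2F1 and E2F4 above the upper.

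The 6 subunits of the origin recognition complex, which marks origins, had levels from 2.51 for ORC4 to 4.38 for ORC6, a 3.67-fold range. Between them were ORC1 at 3.07, ORC2 at 3.30, ORC5 at 3.63 and ORC3 at 3.85. None was above the upper quartile of the table. The order within this complex rests on the length used: ORC6 was 2.5 times ORC1 by canonical transcript, but below it by union exonic length (a difference of -0.096 on the log2 scale).

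CDC6, an ATPase that recruits the helicase, had a level of 4.38, and CDT1, its partner, 4.03. GMNN, which encodes geminin, the inhibitor of CDT1, was higher than both at 5.25. Per length, CDT1 was at 0.43 of GMNN, and the order GMNN, CDC6, CDT1 was the same under all 4 lengths. Before division by length the mean log2 CPM of CDC6 was the highest of the 3, at 6.57.

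The MCM2-7 helicase genes had a median level of 5.91, and per canonical transcript each was above CDC6 and CDT1, which load the helicase. MCM2 was nearest to them, and by coding length it was below CDC6 (5.32 and 5.82). Per canonical transcript the levels were 7.65 for MCM7, 7.18 for MCM3, 6.03 for MCM4, 5.80 for MCM6, 5.46 for MCM5 and 4.98 for MCM2. All 6 were above the upper quartile of the table, 3 of them above its highest decile. The proteins form a ring with 1 copy of each, yet the levels spanned 6.36-fold. MCM7 and MCM3 were the highest pair under every length, but which of them led depended on it (0.47 by canonical transcript and -0.289 by union exonic length, as MCM7 less MCM3). MCM7 lies opposite AP4M1, with 392 exonic bases in common, and AP4M1 had a mean log2 CPM of 3.79 against 8.95 for MCM7.

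In the replisome, the genes that switch the helicase on were modest. CDC45 had the highest level of this role at 4.89, followed by GINS1 at 3.93, GINS2 at 3.78, MCM10 at 3.56 and GINS4 at 3.48. By coding length GINS1 led and CDC45 was below GINS4. GINS3 had the lowest level, 2.38, and was the lowest of the role under each length tried. The 4 GINS proteins form 1 complex, and GINS2 was 2.64 times GINS3 but only 1.23 times GINS4.

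The primase and polymerase genes had the widest range of any role, 88.5-fold. POLD2, the second subunit of polymerase delta, which copies the lagging strand, had 7.34, its catalytic subunit POLD1 had 5.41 and POLD3 had 3.52. POLE, the catalytic subunit of polymerase epsilon on the leading strand, and its partner POLE2 were nearly equal at 4.49 and 4.64. The primase subunits PRIM1 and PRIM2 had 3.58 and 4.23, and POLA1, the catalytic subunit of polymerase alpha that extends their primers, had 4.36.

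POLA2, the regulatory subunit of polymerase alpha, was far from its partner at 0.87, with POLA1 11.3 times as high. It was the lowest of the role under all 4 lengths, and its mean log2 CPM of 2.69 was the lowest of the 55 genes. POLA2 (ENSG00000014138, chromosome 11, 65261920 to 65305589) shares 2012 exonic bases with ENSG00000285816, an annotated gene on the same strand, and how reads common to both were counted is not given in the sources used here. The part of this overlap in the low level was not tested. Same-strand overlaps were found for 6 of the 55 genes (10.9%) and for 17.7% of the 11603 protein-coding genes of the authors' deposited table. Among the 6 were PRIM1 with 139 bases of NACA and POLD1 with 426 bases of a further annotated gene.

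PCNA, the sliding clamp that tethers polymerases to DNA, had a level of 7.46 (175.4 CPM per kb), the second highest of the 55 genes. Its loader genes were lower and close together, with RFC4 at 5.63, RFC2 at 5.61, RFC5 at 5.25, RFC3 at 4.56 and RFC1, the large subunit, at 4.16. PCNA was 9.79 times RFC1, and both were the extremes of their role under all 4 lengths. By union exonic length RFC4 was instead below RFC2 and RFC5 (4.49, against 5.21 and 4.625). FEN1, the nuclease that trims Okazaki fragments, had 6.19 and LIG1, the ligase that joins them, 5.11. RPA1 and RPA2, subunits of the single-strand binding protein RPA, had 5.82 and 5.54, and the small subunit RPA3 had 3.94. RPA3 was at 0.33 of RPA2 per canonical transcript, but by coding length the difference was only -0.096 on the log2 scale.

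The enzymes of nucleotide supply were the highest role. TYMS, thymidylate synthase, had 6.97, and RRM1 and RRM2, the subunits of ribonucleotide reductase, had 6.66 and 6.58. Per canonical transcript all 3 were above the highest decile of the table and within 1.32-fold of each other. They were less alike under other lengths. By union exonic length RRM2 was the lowest at 5.09, with TYMS at 6.39 and RRM1 at 6.225. By coding length RRM2 was the highest at 8.06, with TYMS at 7.75 and RRM1 at 7.06. TYMS shares 967 exonic bases with ENOSF1 on the opposite strand, which had a mean log2 CPM of 5.38 against 7.66 for TYMS. A pseudogene of RRM2 was also in the table, as was 1 of E2F6, and reads of such copies may be split between them.

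The classes were then set side by side, as the choice of genes implies. The median level was 3.40 for the 11 E2F regulators, 4.38 for the 15 licensing factors and 4.53 for the 26 replisome genes, so the regulators were lowest per canonical transcript. Without division by length the regulators (5.73) were instead above the licensing factors (5.59). E2F regulators and licensing factors together, 26 genes, had a median of 4.04, which is a difference of -0.48 from the replisome on the log2 scale. The ranges nearly coincided, from 1.19 to 7.65 and from 0.87 to 7.46. Genes are not replicates and the order of licensing factors and replisome turned with union exonic length (4.16 and 3.77), so no order of the classes was taken from the data.

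**Figure D4:**
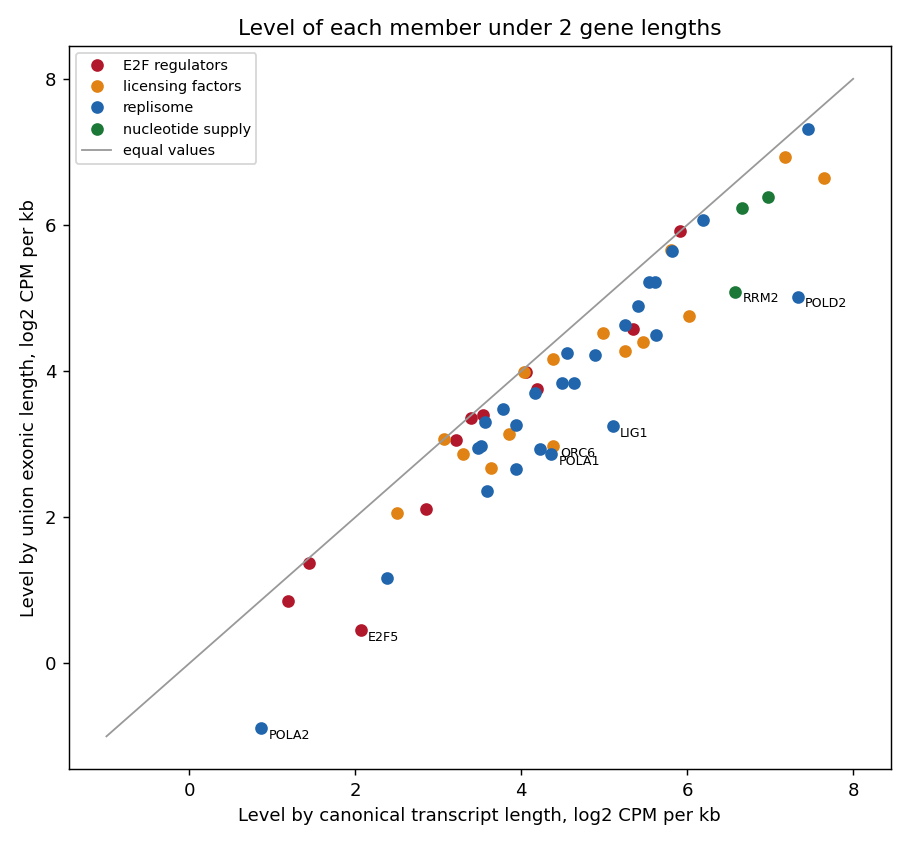
Level of each of the 55 genes by canonical transcript length (horizontal) and by the union of all annotated exons (vertical), both as log2 CPM per kb, coloured by class. Points on the line have equal values. POLD2 lies farthest below it (7.34 and 5.02), and E2F1 lies on it (5.91 in both).

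The choice of length moved some genes strongly, as the plot of levels under both lengths shows. By union exonic length the level of POLD2 was 5.02 in place of 7.34 and that of LIG1 3.24 in place of 5.11, since the exons of all their annotated transcripts add up to far more than those of the canonical one (8005 against 1609 bases for POLD2). E2F1 and ORC1 did not move.

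Per canonical transcript, levels did not separate genes with a match to the 4 E2F forms from those without. Other lengths and the search with 2 forms were not tried for this. Genes with windows away from the canonical start are included, PCNA with a match and RB1, ORC4 and PRIM2 without. The 22 genes with a match had a median of 4.44, from 0.87 to 7.65, and the 25 without had 4.38, from 1.19 to 7.34.

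Position was also examined. The 55 genes lie on 19 chromosomes, with no more than 6 on any of them. A protein-coding neighbour that starts on the other strand, between 1000 bases before and 300 bases inside the start of the gene, was found for 14 of the 55 (25.5%), compared with 13.8% of the 11603 protein-coding genes of the authors' deposited table. The start was here the outer end of the whole annotated gene, for both shares, and not that of the canonical transcript. These can differ, as for GINS3, whose gene begins at 58295080 and whose promoter window begins at 58392221. Some of the 14 therefore need not be divergent at the start in use. Partners include PRKDC for MCM4, TPRA1 for MCM2, UFD1 for CDC45, CDS2 for PCNA, VPS35 for ORC6 and TMEM258 for FEN1. The levels of partners could be near, as for CDC45 at 4.89 and UFD1 at 4.77, or far apart, as for PCNA at 7.46 and CDS2 at 2.69. For PCNA, however, the RefSeq start beside this outer end lay well before that of the canonical transcript (-6664 bases). Its level was divided by the length of that canonical transcript. Exons of 22 of the 55 genes (40.0%) overlap those of a gene on the opposite strand, near the 43.2% of the same 11603 genes. The libraries were stranded, but whether strand was used in counting is not given in the sources used here.

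Further genes of the pathway were taken from a list of 41, of which 39 were in the authors' deposited table and RNASEH2A and TEN1 were not. Their median level was 3.85, with 13 above the upper quartile of the table and 3 below the lower. TFDP1, the usual dimer partner of E2F factors, had 6.35, and its relative TFDP2 had 2.01. The kinase gene CDC7 and its activator DBF4, which fire licensed origins, had levels of 3.18 and 3.11. TK1, UNG and POLE3 were high at 7.12, 6.28 and 6.17. Of the MuvB complex, which represses E2F targets in resting cells together with pocket proteins, LIN54 had 2.30, LIN9 2.34, LIN52 1.78 and LIN37 1.13, all below the median of all genes, and RBBP4 had 3.69. MCM8 and MCM9, relatives of the helicase that act in repair, had 2.49 and 1.23, below all 6 subunits of the MCM2-7 ring.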

How the data were processed

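Stranded, ribosome-depleted RNA libraries were made from MDA-MB-231 Fluc cells, 2 per treatment, and sequenced (75 bp paired-end reads). The paper's methods name GRCh38.p13 and rsubread, whereas the submitters' processing notes name TopHat, HTSeq, DESeq and Cufflinks with hg38; the filter on low counts and the scaling are not given in the sources used here. The authors' deposited table holds, for each of 13957 genes, a length, a position and a mean expression as log2 CPM over all libraries. Its remaining values (fold change, F statistic, p-value and adjusted p-value of cordycepin against DMSO) are the authors' own comparison and were not used. It holds 0 columns of values per sample, so no test, SD or interval of a level could be made.

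Gene IDs were matched to GENCODE release 44 (99.7% found, 47 of the 55 genes with the same start and end), and levels were divided by the length of the canonical transcript. Alternatives were union exonic length, coding length, no division, and the length in the deposited table, the last chosen after seeing the data, as was a search limited to promoters within 500 bases of the canonical start. All members were named, with the highest and lowest of each role. The levels of 2 genes from the marker and pathway lists are not reported here. The members and lists were chosen with earlier results of these data known. The motif search was tested on simulated sequences with planted motifs, and the percentiles on the mean log2 CPM values of the deposited table itself. Scripts ran under Python 3.11.15 with scipy 1.17.1 for intervals, pandas 2.3.3 and numpy 2.4.6, and plots were drawn in matplotlib 3.10.9.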

Additional observations from a re-analysis of the deposited data

How the results depend on the processing

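Dividing by another length shifts the scale of all genes, whose median level was 3.04 by canonical transcript, 2.39 by union exonic length, 4.38 by coding length, 4.58 without division and 2.43 by the length in the authors' deposited table. Values moved by more than 1.5-fold as follows. The median of the E2F regulators was 4.60 by coding length and 5.73 without division, and that of the licensing factors 5.48 and 5.59. The median of the replisome was 3.77 by union exonic length, 5.56 by coding length, 5.94 without division and 3.93 by the deposited length. Relative to the median of all genes, the E2F regulators lay 0.22 to 1.15 above it, the licensing factors 1.005 to 1.77 and the replisome 1.18 to 1.5 under these settings. The difference of E2F regulators and licensing factors from the replisome stayed negative in the 7 alternatives tried, from -0.64 to -0.19. With the 2 forms TTTCGCGC and TTTGGCGC alone, 27.7% of member promoters had an E2F match, against 2.18% in the table; limiting the windows to those near the canonical start gave 48.8%. Within roles, 4 of 12 kept their whole order under the 4 lengths. No paired analysis was possible because the table carries no values per library, and no replicate could be left out for the same reason. Depth is unknown.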
